A study of Mus musculus with 6 samples.

Results

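The enzymes that modify and crosslink collagen through its lysines were examined in mouse embryonic fibroblasts (MEFs), which are primary connective tissue cells that lay down collagen in culture. They are the 5 lysyl oxidases, *Lox* and *Loxl1* to *Loxl4*, and the 3 lysyl hydroxylases, *Plod1*, *Plod2* and *Plod3*. The 8 genes were taken by symbol from the 17092 genes of the count table, and all 8 had enough counts to be tested. The set was chosen with earlier results of these data known. RNA-seq had been made of WT MEFs (3 libraries) and *Aff3ir-ORF2*-/- MEFs (3 libraries). The knockout targets *Aff3ir-ORF2*, a nested gene within *Aff3*, in the germline. It was made by Cas9 editing of zygotes, and the edited line was outcrossed to WT and then made homozygous. Other MEFs of the study came from C57BL/6 mice, but the strain behind these libraries is not given, no treatment is named for these libraries, and neither embryo age nor sex is given. The question was how the knockout MEFs differed from WT MEFs in transcripts. Nothing states whether the 3 libraries of a genotype came from separate embryos or cultures, so p-values measure only the spread between these libraries. The spread between embryos may be larger. *Aff3ir* itself was not analysed here.

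Collagen is made inside the cell as procollagen chains, on which lysyl hydroxylases turn selected lysines into hydroxylysines. PLOD2 acts mainly on the telopeptides at the chain ends and PLOD1 mainly on the triple helix. PLOD3 also adds glucose to hydroxylysines that already carry galactose. After secretion, copper-dependent lysyl oxidases convert lysines and hydroxylysines of collagen, and lysines of elastin, into aldehydes that form the crosslinks between molecules. LOX and LOXL1 are secreted with a propeptide, and LOXL2, LOXL3 and LOXL4 carry scavenger receptor domains in front of the catalytic domain.

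The stretch of coding sequence most alike between the members printed is shown for each family. It shows how far these copies can be told apart by their bases. Capitals mark bases identical in all members printed. Positions are those of the reference annotation (GENCODE M21, GRCm38), and all lie within a coding exon. In the LOX family the search left out *Lox*, and 40 of 60 bases were identical in the 4 members printed.
Loxl1: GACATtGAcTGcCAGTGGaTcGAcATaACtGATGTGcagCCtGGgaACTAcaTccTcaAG
Loxl2: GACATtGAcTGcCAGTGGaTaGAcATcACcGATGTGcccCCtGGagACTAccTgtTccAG
Loxl3: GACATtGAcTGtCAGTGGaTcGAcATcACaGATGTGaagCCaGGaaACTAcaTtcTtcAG
Loxl4: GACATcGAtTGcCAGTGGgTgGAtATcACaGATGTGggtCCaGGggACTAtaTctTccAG

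In the PLOD family 46 of 60 bases were identical.
Plod1: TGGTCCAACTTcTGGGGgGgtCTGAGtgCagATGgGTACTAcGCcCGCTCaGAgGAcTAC
Plod2: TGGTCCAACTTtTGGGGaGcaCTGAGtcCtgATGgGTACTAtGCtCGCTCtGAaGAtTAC
Plod3: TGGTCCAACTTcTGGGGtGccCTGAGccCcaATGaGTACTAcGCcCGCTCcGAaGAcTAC

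*Loxl1* is at chr9:58292569-58292628 on the minus strand (exon 5 of 7), *Loxl2* at chr14:69690211-69690270 on the plus strand (exon 12 of 14), *Loxl3* at chr6:83050385-83050444 on the plus strand (exon 12 of 14) and *Loxl4* at chr19:42597945-42598004 on the minus strand (exon 13 of 15). *Plod1* is at chr4:147921033-147921092 on the minus strand (exon 12 of 19), *Plod2* at chr9:92598628-92598687 on the plus strand (exon 12 of 20) and *Plod3* at chr5:136990999-136991058 on the plus strand (exon 12 of 19). In local alignments of the coding sequences, *Loxl2*, *Loxl3* and *Loxl4* shared 64.0% to 65.5% of aligned bases in pairs, and the PLOD genes shared 62.9% to 66.5%. *Lox* and *Loxl1* shared 73.4% over the 612 bases that aligned, of 1233 coding bases in *Lox*. The longest run of identical bases between any 2 members of a family was 32, between *Lox* and *Loxl1*.

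In *Aff3ir-ORF2*-/- MEFs, 4 of the 8 genes rose: *Lox*, *Loxl2*, *Loxl4* and *Plod2*, by 1.51-fold to 1.72-fold (n = 3 libraries each). None fell by 1.5-fold, but *Loxl3* was 1.33-fold lower. *Loxl1* and *Plod1* were slightly higher and *Plod3* differed by less than the test could separate. A gene was called where edgeR's quasi-likelihood test gave a Benjamini-Hochberg adjusted p under 0.05 over the 13075 genes tested and the fold change was at least 1.5. By this rule 14.2% of all tested genes were higher, 7.27% were lower and 21.4% changed in either direction. Among the 3365 genes at or above the mean level of the lowest member, in CPM (counts scaled to the library size), 3.89% were higher and 9.09% changed in either direction. By the adjusted p alone, 6 members were higher and 1 was lower, against 29.3% and 27.5% of all tested genes (56.8% in either direction). The libraries of the 2 genotypes did not overlap for any member, 7 being higher and 1 lower, against 33.3% and 32.7% of all tested genes (66% in either direction). The median log2 fold change was 0.43 over the members and 0.01 over all genes tested.

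**Figure D1:**
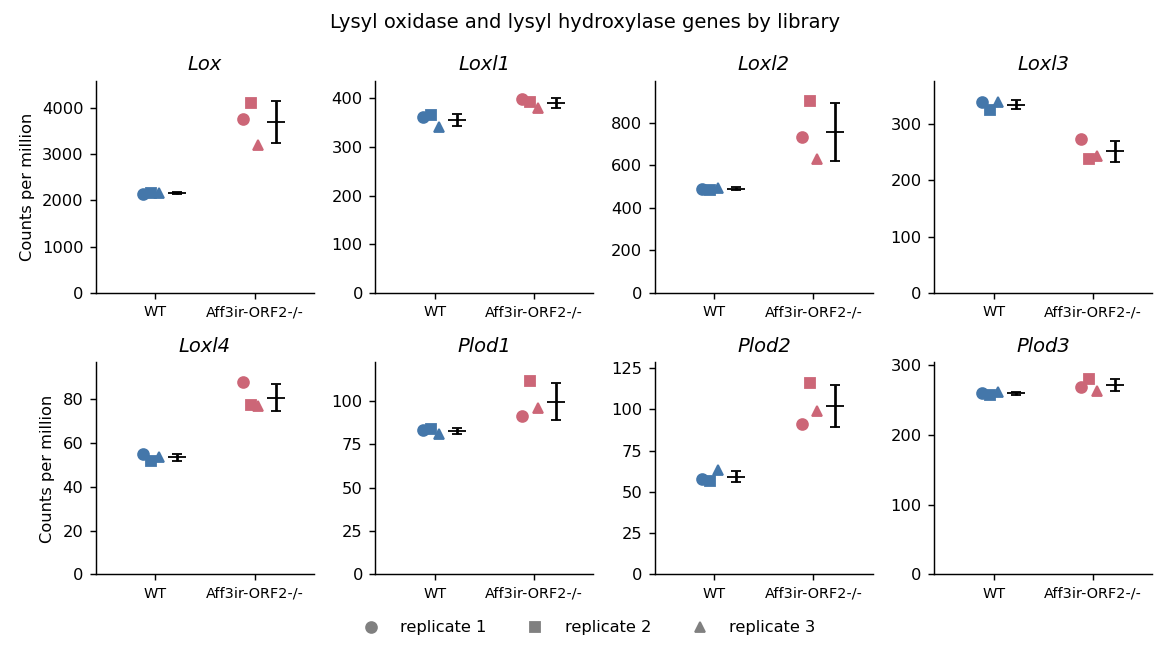
Normalized level of each enzyme gene in every library (vertical axis, CPM from 0) by genotype, with the mean and SD of 3 libraries at the right of each group. The *Aff3ir-ORF2*-/- libraries lie above WT for 7 genes and below WT for *Loxl3*, and replicate 2 is the highest knockout library for 5 genes.

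*Lox* encodes the main lysyl oxidase of fibroblasts and had the highest level per length of the 8 genes. It had 36638, 38059 and 37659 counts in WT replicates 1, 2 and 3, and 68428, 76183 and 58614 counts in *Aff3ir-ORF2*-/- replicates 1, 2 and 3. Every knockout library was above every WT library, and the knockout libraries were farther apart than the WT libraries. The mean rose from 2148 ± 20.9 CPM to 3680 ± 452 CPM (SD, n = 3). The log2 fold change was 0.78 with a standard error of 0.08 (95% interval 0.59 to 0.96, edgeR adjusted p = 5.25e-05). *Lox* took 0.213% of all counts in WT and 0.372% in knockout libraries, from 0.322% to 0.417%. Per kb of exon it ranked 102 of 12845 genes in WT and 36 in *Aff3ir-ORF2*-/- MEFs.

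*Loxl1*, which is known for its part in the upkeep of elastic fibres, changed little. It had 6222, 6428 and 5968 counts in the WT replicates and 7279, 7308 and 6969 counts in the knockout replicates. The lowest knockout library was above the highest WT library after scaling, at 380 against 366 CPM. The log2 fold change was 0.13 ± 0.05 (standard error, edgeR adjusted p = 0.0292), 1.10-fold. This adjusted p exceeded 0.05 under 6 of 18 alternatives, among them leaving out any single WT library.

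*Loxl2*, a lysyl oxidase that acts on collagen IV of basement membranes among other substrates, rose with a wide spread between knockout libraries. It had 8454, 8501 and 8644 counts in WT and 13328, 16782 and 11570 counts in *Aff3ir-ORF2*-/- replicates 1, 2 and 3. The knockout libraries were all higher, with replicate 2 highest at 901 CPM and replicate 3 lowest at 630.5 CPM, against 484 to 495 CPM in WT. The log2 fold change was 0.62 ± 0.12 (standard error, 95% interval 0.34 to 0.91, edgeR adjusted p = 0.00403). At 1.54-fold the gene was just past the threshold, and without *Aff3ir-ORF2*-/- replicate 2 its log2 fold change was 0.47, below it (adjusted p = 0.000183). The SD of log2 CPM was 0.02 in WT and 0.26 in knockout libraries.

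*Loxl3*, which shares the domain layout of *Loxl2*, was the one member with a lower level in knockout libraries. It had 5844, 5702 and 5925 counts in WT and 4961, 4439 and 4466 counts in knockout replicates. All 3 knockout libraries, at 238 to 272 CPM, were below the WT libraries, at 324 to 339 CPM. The log2 fold change was -0.41 ± 0.06 (standard error, 95% interval -0.54 to -0.29, edgeR adjusted p = 0.000207), short of the 1.5-fold threshold. In the annotation 535 exonic bases of *Loxl3* overlap *Htra2* on the opposite strand, and the counting is not stated to use strand. *Htra2* went from 59.8 to 49.9 CPM, a log2 fold change of -0.26, and its part in the *Loxl3* value was not tested.

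*Loxl4* had the lowest level per length of the lysyl oxidases and rose by 1.51-fold, the smallest change past the threshold. Its counts were 951, 910 and 935 in WT and 1600, 1441 and 1414 in knockout replicates. The knockout libraries, at 77.1 to 87.9 CPM, were all above the WT libraries, at 51.8 to 55.2 CPM. The log2 fold change was 0.59 ± 0.06 (standard error, 95% interval 0.46 to 0.73, edgeR adjusted p = 3.94e-05). It fell under 1.5-fold without *Aff3ir-ORF2*-/- replicate 1 (0.53), without WT replicate 2 (0.57) and with no filter on low counts (0.58), in each case with an adjusted p under 0.05.

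*Plod2*, the telopeptide lysyl hydroxylase, had the largest change of the PLOD genes. It had 993, 999 and 1108 counts in WT and 1657, 2159 and 1817 counts in *Aff3ir-ORF2*-/- replicates 1, 2 and 3. The lowest knockout library, at 91.0 CPM, was above the highest WT library, at 63.4 CPM. The mean went from 59.3 ± 3.61 to 102 ± 12.7 CPM (SD, n = 3), and the log2 fold change was 0.78 ± 0.09 (standard error, 95% interval 0.58 to 0.99, edgeR adjusted p = 0.000135).

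*Plod1*, the helical lysyl hydroxylase, had 1437, 1473 and 1409 counts in WT and 1659, 2077 and 1755 counts in knockout replicates. The groups did not overlap, but the change was small, at 0.27 ± 0.07 on the log2 scale (standard error, edgeR adjusted p = 0.0103), 1.20-fold. *Plod3*, which joins hydroxylase and glycosyltransferase activities, had 4495, 4530 and 4563 counts in WT and 4905, 5224 and 4834 counts in knockout replicates. Its log2 fold change was 0.06, with a 95% interval of -0.03 to 0.15 (edgeR adjusted p = 0.238), so that a rise or fall of 1.5-fold lies outside the interval. *Plod3* overlaps *Znhit1* on the opposite strand over 529 exonic bases. Of the called genes, *Plod2* overlaps *Gm38391* over 346 exonic bases, *Loxl2* overlaps *Gm27177* over 301 and *Lox* overlaps *AC161119.1* over 30, all on the opposite strand, and the part of these overlaps in the counts was not tested.

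**Figure D2:**
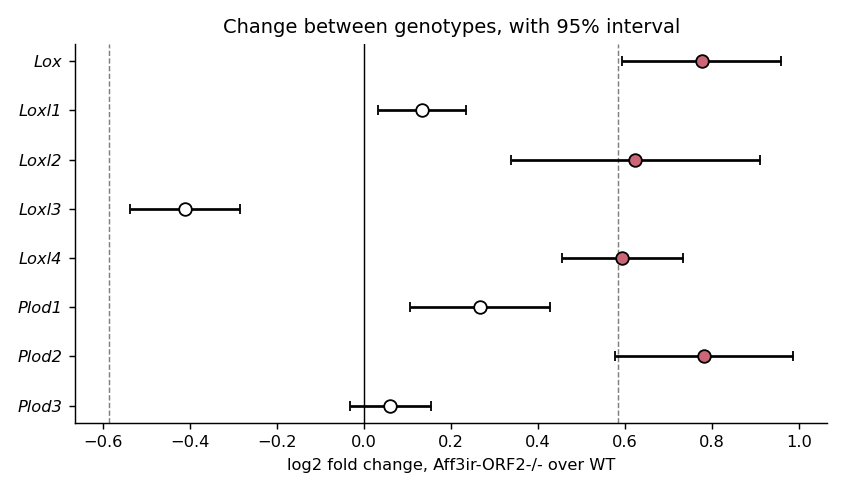
Log2 fold change of each enzyme gene, *Aff3ir-ORF2*-/- over WT (horizontal axis), with its 95% interval from edgeR. Filled points are called, dashed lines mark a 1.5-fold change in either direction, and the point estimates run from -0.41 for *Loxl3* to 0.78 for *Lox* and *Plod2*.

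The members of a family did not keep their proportions. Counts were divided by exonic length and given as a share of the family's sum in each library, as a description with no test. *Lox* made up 60.4% ± 0.454 of lysyl oxidase transcripts per length in WT and 69.2% ± 0.981 in *Aff3ir-ORF2*-/- MEFs (SD, n = 3). The share of *Loxl1* went from 14.5% to 10.7% and that of *Loxl3* from 11.0% to 5.56%, in both cases with no overlap between genotypes. With coding length in place of exonic length these shares were lower in both genotypes, from 8.43% to 5.89% for *Loxl1* and from 6.37% to 3.06% for *Loxl3*, and *Loxl2* (9.07% in WT) was then above *Loxl1*. The shares of *Loxl2* (12.2% and 12.5%) and *Loxl4* (1.92% and 1.96%) overlapped between genotypes. Among the lysyl hydroxylases, *Plod2* went from 13.5% ± 0.719 to 19.9% ± 1.28 and *Plod3* from 67.1% to 60.1%, while *Plod1* (19.4% and 20.0%) overlapped. Per length, there were 69.8 *Plod2* counts for 100 *Plod1* counts in WT and 99.6 in knockout libraries, and 111 *Loxl2* counts for 100 *Loxl3* counts in WT and 229 in knockout libraries. *Lox* stayed the highest of its family and *Plod3* of its own in every library.

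**Figure D3:**
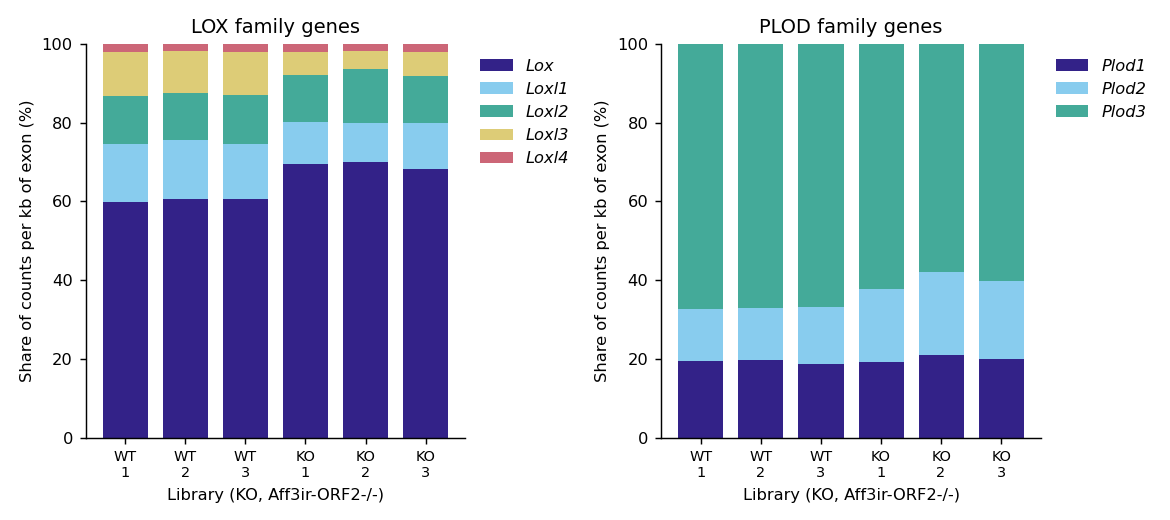
Share of each gene in its family's counts per kb of exon (vertical axis, %) in every library (bars; KO is *Aff3ir-ORF2*-/-). *Lox* takes 59.9% to 60.7% of the lysyl oxidases in WT and 68.2% to 70.1% in knockout libraries, and *Plod2* 13.1% to 14.3% and 18.6% to 21.2% of the lysyl hydroxylases.

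The genes of collagens I and III, main substrates of these enzymes, did not rise with them. *Col1a1*, which encodes the major chain of collagen I, had 7331, 7399 and 7369 CPM in WT and 4865, 6404 and 4469 CPM in *Aff3ir-ORF2*-/- replicates 1, 2 and 3. Its log2 fold change was -0.49 ± 0.12 (standard error, edgeR adjusted p = 0.0125), short of 1.5-fold, and *Col3a1*, of collagen III, overlapped between genotypes (0.02, adjusted p = 0.959). The value of *Col3a1* was -0.45 (adjusted p = 0.114) without *Aff3ir-ORF2*-/- replicate 2. Of the 12 fibrillar collagen genes and elastin tested, 4 rose and 1 fell, with a median log2 fold change of -0.12. *Col11a1* (2.05) and *Col2a1* (2.34), both known from cartilage, rose, and *Col5a3* fell by 1.55 on the log2 scale. *Eln*, which encodes elastin, also rose from a low level, by 1.56 on the log2 scale (edgeR adjusted p = 0.0197). Its mean was 5.07 CPM in WT, and the knockout replicates 1, 2 and 3 had 7.74, 15.5 and 21.5 CPM. Of the 12 genes, 3 fell when *Aff3ir-ORF2*-/- replicate 2 was left out. In counts per length, the lysyl oxidases came to 31.0 ± 0.0279 for 100 of *Col1a1*, *Col1a2* and *Col3a1* together in WT and to 62.9 ± 8.50 in knockout libraries (SD, n = 3), 2.03-fold more. The lysyl hydroxylases came to 4.92 and 7.82, 1.59-fold more. *Lox* alone went from 36.2 to 87.9 for 100 *Col1a1*, and *Plod2* from 1.29 to 3.14. No ratio overlapped between genotypes. For *Lox* and *Plod2* over *Col1a1* this follows from the gene levels, as the enzymes were higher and *Col1a1* lower in every knockout library. In replicate 2 of the knockout, where *Col1a1* was highest, the 4 ratios were the lowest of the 3 knockout libraries.

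**Figure D4:**
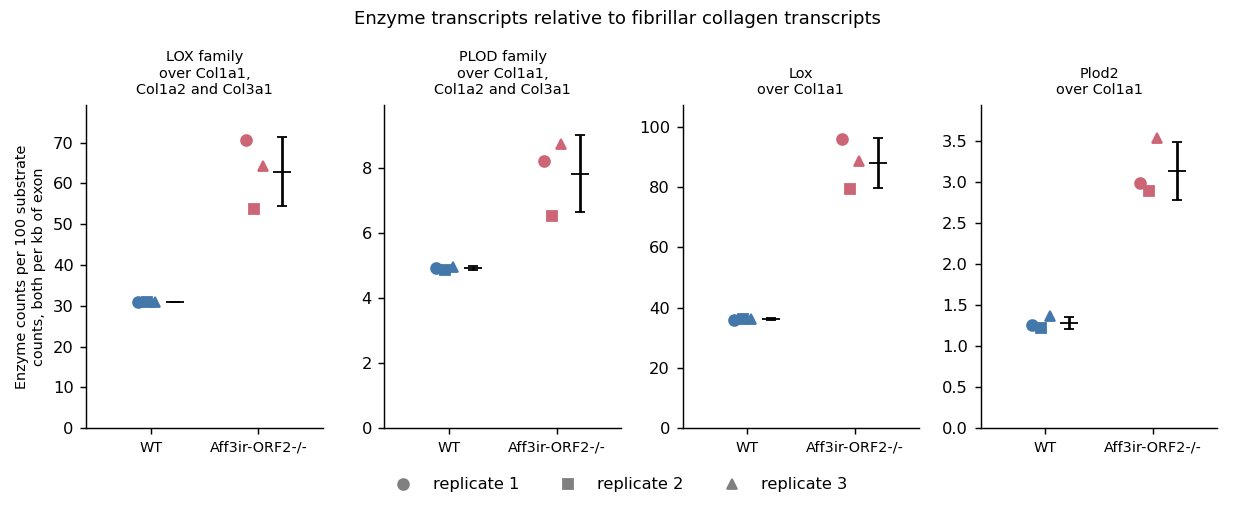
Enzyme counts for 100 substrate counts, both per kb of exon (vertical axis, from 0), in every library by genotype, with the mean and SD of 3 libraries. All knockout libraries lie above all WT libraries in the 4 ratios, and replicate 2 is the lowest knockout library in each. For *Lox* and *Plod2* over *Col1a1* the separation follows from the levels of the single genes.

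Genes of the same pathway were followed in lists written for this comparison, with earlier results of these data known. In these lists 97 genes were tested, 23 rose and 5 fell, with a median log2 fold change of 0.19. Of 10 genes of collagen prolyl hydroxylation, none passed both thresholds, and 6 were higher by the adjusted p alone. Without *Aff3ir-ORF2*-/- replicate 3, 1 rose. *P4hb*, the shared subunit of the prolyl 4-hydroxylases, had a log2 fold change of 0.27 (edgeR adjusted p = 0.00181). Of 8 partners of the lysyl hydroxylases and hydroxylysine glycosyltransferases, 2 rose and none fell. *Tmem38b*, an ER cation channel whose loss is known to disturb lysine hydroxylation, rose by 1.01 on the log2 scale (adjusted p = 7.42e-06), and *Fkbp14*, an ER prolyl isomerase, by 0.70 (adjusted p = 9.55e-05). *Fkbp10*, which assists PLOD2, had 0.27 and was not called.

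Of 15 procollagen chaperone and export genes, *Kdelr3*, an ER retrieval receptor, rose (0.63), and *Serpinh1*, the collagen chaperone HSP47, was lower without being called (-0.30). Without *Aff3ir-ORF2*-/- replicate 2, 0 of the 15 rose. Of 7 procollagen cleavage genes, 2 fell and none rose: *Pcolce2*, an enhancer of C-propeptide cleavage, by 1.83 and *Adamts14*, an N-propeptidase, by 1.23 on the log2 scale. *Pcolce*, the higher-expressed enhancer, had 0.07 (edgeR adjusted p = 0.537). Of 13 genes of copper supply and matrix partners of the lysyl oxidases, 2 rose and 2 fell. *Sod3*, an extracellular copper enzyme, rose by 2.46 and *Tnxb*, a tenascin of collagen fibrils, by 1.10. *Postn*, a matrix protein that aids LOX activation, fell by 1.04 and *Steap3*, a metalloreductase, by 0.78 on the log2 scale, and *Thbs1* had 0.14. The adjusted p of *Postn* was 0.0535 without *Aff3ir-ORF2*-/- replicate 1, which left 1 gene lower.

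Of 4 other crosslinking enzymes, *Tgm2* (1.33), tissue transglutaminase, and *F13a1* (1.49), the transglutaminase of clotting that macrophages also make, rose, and *Pxdn*, which crosslinks collagen IV, had -0.49. *F13a1* was at 0.420 ± 0.180 CPM in WT and 1.19 ± 0.626 CPM in knockout libraries, which overlapped (SD, n = 3), and its adjusted p exceeded 0.05 without WT replicate 1, WT replicate 3 or *Aff3ir-ORF2*-/- replicate 3 (0.0941 to 0.101). Hypoxia is a known inducer of *Lox*, *Loxl2* and *Plod2*. Of 16 hypoxia response genes, 8 rose, 8 were not called and none fell, with a median of 0.57. *Ldha* (0.63) rose, and so did *Epas1* (1.70), a hypoxia-inducible factor subunit with a mean of 4.81 CPM in WT. Among those not called, *Vegfa* had 0.09, *Slc2a1* 0.07 and *Ndrg1* -0.54. The part of hypoxia in the enzyme values was not tested. Without *Aff3ir-ORF2*-/- replicate 2, 1 of the 16 fell. Of 15 genes of the TGF-beta response, 4 rose and none fell, with a median of 0.03. *Acta2* (0.84) and *Ltbp2* (0.89) rose. Without *Aff3ir-ORF2*-/- replicate 1 or 3, 1 of the 15 fell.

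**Figure D5:**
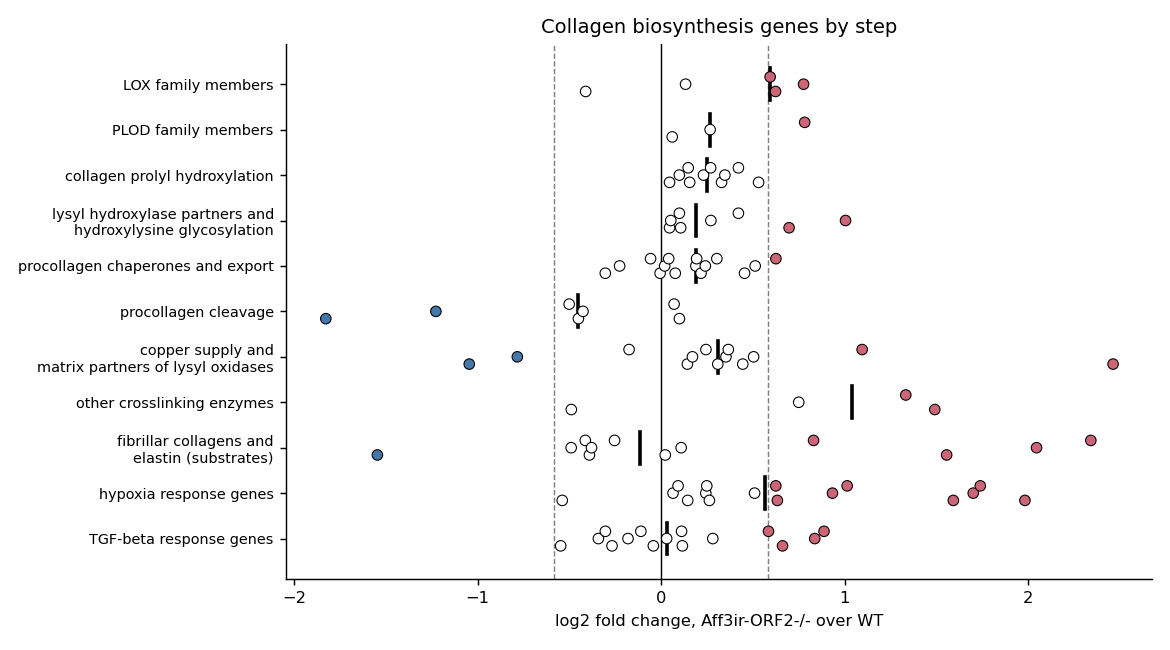
Log2 fold change, *Aff3ir-ORF2*-/- over WT (horizontal axis), of the enzyme genes and of the tested genes of each pathway list. Filled points are called (red higher, blue lower), dashed lines mark a 1.5-fold change, thick bars are list medians, and hypoxia response genes have a median of 0.57 with 8 of 16 called higher.

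Promoter sequence was at hand for 3 members (RefSeq, GRCm38.p6), of which *Loxl4* was called and *Plod1* and *Plod3* were not. All 3 are shown, since all hold letters searched for hypoxia response elements. Each run is the 250 bases before the annotated start, 5′ to 3′ on the gene's strand. Capitals mark any match, on either strand, to the hypoxia element core ACGTG or its variant GCGTG, to the SMAD element CAGAC, to the AP-1 element TGACTCA or to the TATA box TATAAA. *Loxl4* is at chr19:42612807-42613056 on the minus strand, *Plod1* at chr4:147936777-147937026 on the minus strand and *Plod3* at chr5:136986769-136987018 on the plus strand.
Loxl4: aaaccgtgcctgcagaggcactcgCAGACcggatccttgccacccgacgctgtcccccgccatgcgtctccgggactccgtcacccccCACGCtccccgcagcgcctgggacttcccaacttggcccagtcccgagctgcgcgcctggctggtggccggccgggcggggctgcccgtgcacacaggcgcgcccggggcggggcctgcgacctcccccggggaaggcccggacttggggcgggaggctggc
Plod1: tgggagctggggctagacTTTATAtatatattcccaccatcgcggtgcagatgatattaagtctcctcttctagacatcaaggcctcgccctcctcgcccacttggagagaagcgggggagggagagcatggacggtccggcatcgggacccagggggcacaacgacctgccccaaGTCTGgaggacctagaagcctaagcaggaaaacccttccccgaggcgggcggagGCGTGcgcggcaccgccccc
Plod3: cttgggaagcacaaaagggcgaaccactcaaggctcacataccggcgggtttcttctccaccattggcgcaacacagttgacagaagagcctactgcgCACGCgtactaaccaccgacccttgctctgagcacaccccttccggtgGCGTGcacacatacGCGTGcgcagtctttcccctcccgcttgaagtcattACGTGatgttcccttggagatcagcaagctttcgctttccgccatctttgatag

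*Loxl4* held 1 GCGTG and 1 CAGAC. *Plod1* held 1 GCGTG, 1 CAGAC and 1 TATAAA. *Plod3* held 1 ACGTG and 3 GCGTG. Of 32851 promoter windows of the same length, 16.6% held ACGTG, 28.2% held GCGTG, 42.2% held CAGAC and 12.4% held TATAAA on either strand. A match is a description of letters, and bases before the start are 76.0% G or C in *Loxl4* against a median of 52.4% in all windows.

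Over the 11564 genes whose log2 CPM averaged 1 or more, the pattern over the 6 libraries most like that of *Lox* was that of *Pdxdc1* (Pearson r = 0.9997 of log2 CPM). For *Loxl2* it was *Prorsd1* (0.9999), for *Loxl4* *Mcfd2* (0.9985) and for *Plod2* *Mtf1* (0.9979). With 6 libraries in 2 genotypes these values share the split by genotype and are given as a description.

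Markers of other cells differed with genotype beside these results. Of 20 macrophage markers, the 19 tested were all higher, and their summed level was 23.7 to 27.3 CPM in WT and 1420 to 2430 CPM in *Aff3ir-ORF2*-/- libraries. *C1qa*, *C1qb* and *Aif1* were at 0 in every WT library. *Lyz2* was at 10.4 ± 0.963 CPM in WT and at 795, 1086 and 1373 CPM in knockout replicates 1, 2 and 3 (SD, n = 3). Of 10 smooth muscle and myofibroblast markers 7 rose, with a summed level of 4513 to 4622 CPM in WT and 7543 to 8258 CPM in knockout libraries. Of 18 fibroblast markers 2 rose and 1 fell, and their summed level was 34625 to 34759 CPM in WT and 28576 to 36458 CPM in knockout libraries. Without *Aff3ir-ORF2*-/- replicate 2, 1 of these rose and 3 fell, and without replicate 1, 0 fell. Cartilage and bone (4 higher, 2 lower of 8), skeletal muscle (3 higher of 4) and endothelial markers (3 higher, 1 lower of 6) also differed, and neither of the 2 epithelial markers tested was called. The single lower endothelial marker lost its call, and 1 of the 2 lower cartilage and bone markers too, without WT replicate 2 or WT replicate 3, and so did 1 of the 2 higher fibroblast markers. The part of these cells in the enzyme values was not tested. In bulk RNA, fewer cells of a type and less RNA per cell cannot be told apart.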

How the data were processed

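RNA of WT and *Aff3ir-ORF2*-/- MEFs was sequenced as paired-end reads and filtered with SOAPnuke. The authors deposited unnormalized estimated counts for each library and 17092 genes with NCBI Gene ID and symbol. The submitters' processing notes list build mm8, and the aligner and counter are not given in the sources used here. Totals were 17435133 to 17726034 in WT and 18209421 to 18252330 in *Aff3ir-ORF2*-/- libraries. Between 10.6% and 11.3% of the values were not whole, and all were rounded.

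Genes were filtered with filterByExpr (minimum count 10, minimum total 15), scaled by TMM and tested with edgeR 4.0.16 (R 4.3.3), quasi-likelihood with robust estimation and no covariate. Log2 CPM used a prior count of 2. The test fitted each gene with a dispersion shared by both genotypes. The SD of log2 CPM of *Lox* was 0.01 in WT and 0.18 in knockout libraries, and that of *Loxl1* was 0.05 and 0.04. Calls needed an adjusted p under 0.05 and a 1.5-fold change. The members and lists were chosen with earlier results of these data known. Named genes were all members, up to 2 called higher and 2 called lower by adjusted p and the highest-level gene of each pathway list, up to 2 highest-level genes of each marker list and those at 0 in WT, and the gene most alike to each called member. The marker lists covered macrophage, fibroblast, smooth muscle, endothelial, epithelial, cartilage and bone, and skeletal muscle cells. Of the genes this rule gives, 1 is not reported here. Substrate genes *Col1a2* and *Col3a1* were named as part of the ratios, and *Eln* because elastin is a substrate of the lysyl oxidases. *Vegfa*, *Slc2a1* and *Ndrg1* were named as hypoxia response genes that were not called.

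Exonic lengths, coding bases (Biopython 1.88, local alignment) and coordinates came from GENCODE M21 (GRCm38), not from the build of the counts. Coding bases took the place of the protein sequences first planned. On simulated counts of this comparison, 200 of 200 genes changed 3-fold were called among 13050 tested with 0 others. With no change 0 of 13039 were called (667 at an unadjusted p under 0.05). The changed genes were drawn from those above a set mean count, and their change was larger than that of any member. Calls near 1.5-fold were therefore not tried. Alternatives were other scalings and filters, DESeq2 1.42.0, limma voom (limma 3.58.1), a replicate block, other thresholds, other lengths and leaving out each library. Fitting without robust estimation, and the spread without 1 library, were added after the data were seen, when it was also settled that shares overlapping between genotypes are not counted as reversed.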

Additional observations from a re-analysis of the deposited data

How the results depend on the processing

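Under the other scalings, DESeq2, limma voom, at least 10 counts in every library, the unadjusted p, no robust estimation (added after seeing the data) and a replicate block, the same count of 4 members was called, and the log2 fold changes of the 8 members kept their direction in all 18 alternatives, as from 0.69 to 0.87 for *Lox*, 0.68 to 0.85 for *Plod2*, 0.47 to 0.74 for *Loxl2* and 0.53 to 0.63 for *Loxl4*. With no filter on low counts 3 were called (without *Loxl4*). A 2-fold threshold called 0 members and 0 higher, with 17 calls in the pathway lists in place of 28 and 1413 genes in all (1096 higher, 317 lower) in place of 2802 (1851 higher, 951 lower), which follows from the larger fold. A test against a 1.5-fold change called 1 member, *Lox*, which was higher (adjusted p = 0.0465), 16 genes in the lists and 1484 genes in all (1074 higher, 410 lower). Leaving out each library in turn called 3 to 4 members, 25 to 29 pathway genes and 2678 to 2877 genes in all. The difference in the share of *Lox* was 6.17 percentage points with coding length and 7.78 with counts not divided by length, against 8.81, and 8.37 to 9.34 with 1 library left out. The shares of *Loxl2* and *Loxl4*, which overlapped between genotypes, differed by 0.329 and 0.0346 points and turned to -0.275 and -0.0386 with coding length. The share of *Loxl2* also turned without *Aff3ir-ORF2*-/- replicate 2 (-0.248), and that of *Loxl4* without replicate 1 (-0.0237) or 3 (-0.0379) and with counts not divided by length (-0.0035). Among the genes reported and not called, 4 turned direction with 1 library left out, over ranges of -0.043 to 0.17 for *Pcolce*, -0.45 to 0.28 for *Col3a1*, -0.43 to 0.061 for *Krt19* (-0.22 on all libraries) and -0.072 to 0.20 for *Krt18* (0.04 on all libraries). *Pcolce*, *Col3a1* and *Krt19* turned without *Aff3ir-ORF2*-/- replicate 2, and *Krt18* without WT replicate 2 (-0.046) or *Aff3ir-ORF2*-/- replicate 1 (-0.018) or 3. *Col3a1* was also at -0.091 with limma voom and -0.092 with the replicate block. The cause was not tested. Samples with the same replicate number shared only a number (correlations of their deviations 0.0386, 0.0424 and 0.0145, each the best of its library); the replicate block gave 2808 calls (1854 higher, 954 lower), 4 of them members, and 28 pathway genes. *F13a1* rested on few counts.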
